A study of Rattus norvegicus with 60 samples.

Results

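The genes described here are 10 of the core and output genes of the circadian clock: Arntl, Per1, Per2, Per3, Cry1, Nr1d1, Nr1d2, Dbp, Tef and Hlf. They were taken by name from the table of read counts per gene, in which each name stood on 1 of 32545 rows. Their transcripts were counted by sequencing poly(A)-enriched RNA of snap-frozen kidney outer medulla and cortex from rats of a NOX4 knockout line (NOX4) and from the Dahl salt-sensitive rats (SS) from which that line derives, a strain that becomes hypertensive on salt. NADPH oxidase 4, the product of the deleted gene, makes hydrogen peroxide in kidney tubules. Each strain was studied under control conditions (LS) and after 4% NaCl in the diet for 7 days (HS7) or 21 days (HS21), which gave 12 groups of strain, diet and tissue with 5 libraries each and 60 libraries in all. All groups share the SS background and differ by the knockout, the diet and the tissue. The labels name the whole knockout line, with no promoter, Cre or clone, and give no sex, age, hour of sampling, salt content of the control diet or animal number. They number the libraries of each group 1 to 5, without saying whether libraries of the same number in the tissues came from 1 rat or whether the 5 libraries of a group came from separate animals. The p-values below therefore measure the spread between these libraries.

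The clock is a feedback loop of transcription. Arntl, also called Bmal1, encodes the activator that pairs with CLOCK or NPAS2 and switches on the Per and Cry genes, the Nr1d genes and Dbp through E-box elements. PER and CRY proteins repress that activator, and the nuclear receptors NR1D1 and NR1D2 (REV-ERB alpha and beta) repress Arntl through RORE elements. DBP, TEF and HLF are related leucine zipper factors that bind D-box elements and carry the rhythm to output genes. In most peripheral tissues of rodents the transcript of Arntl peaks at about the opposite phase to those of Dbp, Nr1d1 and Per3, and in the kidney the clock is known to govern genes of sodium transport and of drug handling.

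The sites named in that loop were looked for in the RefSeq promoters of the genes (assembly GRCr8, 300 bases that lie mostly before a start site), which held 9 promoters of 8 of the 10 genes. Motifs searched on both strands were the E-box CACGTG, the related E-box CACGTT, the D-boxes TTATGTAA and TTATGCAA, and the core AGGTCA to which nuclear receptors such as NR1D1 bind. The 4 promoters printed here, 5′ to 3′ on the strand of the gene, are those of the activator, of a repressor, of a nuclear receptor and of an output gene that held a match, and capitals mark the match.
Arntl promoter (listed as Bmal1, chr1:176766078-176766377, plus strand): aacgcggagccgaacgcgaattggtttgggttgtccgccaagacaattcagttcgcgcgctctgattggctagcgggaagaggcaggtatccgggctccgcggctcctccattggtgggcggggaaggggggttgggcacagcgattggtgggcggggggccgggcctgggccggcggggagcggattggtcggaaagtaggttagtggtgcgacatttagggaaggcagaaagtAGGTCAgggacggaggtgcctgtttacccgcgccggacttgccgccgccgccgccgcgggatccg
Per2 promoter (chr9:99496944-99497243, minus strand): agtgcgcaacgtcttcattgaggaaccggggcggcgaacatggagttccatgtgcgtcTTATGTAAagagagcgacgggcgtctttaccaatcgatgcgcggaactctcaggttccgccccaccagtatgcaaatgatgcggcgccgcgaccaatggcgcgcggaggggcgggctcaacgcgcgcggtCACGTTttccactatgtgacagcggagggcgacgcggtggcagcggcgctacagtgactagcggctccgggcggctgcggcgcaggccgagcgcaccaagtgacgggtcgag
Nr1d1 promoter, start site 2 (chr10:84229405-84229704, minus strand): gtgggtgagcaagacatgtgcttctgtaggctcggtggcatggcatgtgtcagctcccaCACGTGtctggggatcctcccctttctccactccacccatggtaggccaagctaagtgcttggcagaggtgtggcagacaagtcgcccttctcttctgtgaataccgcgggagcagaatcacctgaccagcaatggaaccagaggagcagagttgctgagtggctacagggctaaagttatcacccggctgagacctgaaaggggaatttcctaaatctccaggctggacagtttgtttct
Tef promoter (chr7:115206577-115206876, plus strand): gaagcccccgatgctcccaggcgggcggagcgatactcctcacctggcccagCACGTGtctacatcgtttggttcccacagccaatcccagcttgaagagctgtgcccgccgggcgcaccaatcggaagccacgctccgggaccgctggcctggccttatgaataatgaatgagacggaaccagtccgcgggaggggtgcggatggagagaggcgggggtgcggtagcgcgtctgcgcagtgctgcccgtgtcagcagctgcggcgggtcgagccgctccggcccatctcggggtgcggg
Arntl held AGGTCA at -15, counted from the start site to the first base of the match. In Per2 the D-box TTATGTAA lay at -192 and the E-box CACGTT at -62. The E-box CACGTG lay at -191 in Nr1d1 (start site 2) and at -198 in Tef. Of the 33469 promoters of 300 bases in the table, 6.42% held CACGTG, 4.83% held CACGTT, 0.893% held TTATGTAA, 0.863% held TTATGCAA and 16.2% held AGGTCA. Among the other promoters, Nr1d2 held AGGTCA and Nr1d1 (start site 1) held CACGTT on its other strand, while those of Per1, Per3 and Dbp held none of the letters searched in this window. These matches describe the letters and are not tests of binding.

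Library totals ran from 11.5 to 29.6 M counts. Of the SS libraries, 11 (5 of cortex and 6 of outer medulla, all at LS or HS7) are called low-complexity libraries below. They had 0 counts for 12 to 183 of the genes whose median was 2 to 5 CPM in their tissue. Every other library had 0 counts for at most 3 of these genes. The deleted gene was lower in NOX4 cortex at every diet (log2 fold change -2.25 to -2.705), and in outer medulla it was called at HS7 only (-2.62 ± 0.62, adjusted p = 0.0104), with -0.94 ± 0.60 (adjusted p = 0.293) at LS and -1.47 ± 0.60 (0.208) at HS21. At HS7 it had 2.38, 13.6, 3.83, 2.37 and 4.05 CPM in NOX4 outer medulla and 5.54, 8.54, 100.6, 34.6 and 11.4 CPM in SS outer medulla, so that SS replicates 3 and 4 held most of that difference. Averaged over 8 markers of segments 1 and 2 of the proximal tubule, log2 CPM was 3.72 to 6.31 in the outer medulla groups and 10.3 to 10.9 in the cortex groups, and that of 6 markers of the thick ascending limb was 9.0 to 9.72 in outer medulla and 7.47 to 7.81 in cortex. Markers of segment 3, which lies partly in the outer medulla, did not separate the tissues (5.80 to 7.40 in the outer medulla groups and 6.95 to 8.07 in the cortex groups). Outer medulla libraries NOX4 HS7 replicate 2 and SS HS7 replicate 3 stood apart from their groups toward cortex, with 8.64 and 8.79 for segments 1 and 2, 6.02 and 5.04 for distal convoluted tubule markers (group means 2.24 to 3.28 in outer medulla and 7.43 to 8.24 in cortex) and 4.43 and 4.71 for podocyte markers (2.13 to 2.97 and 5.99 to 6.66).

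All 10 genes were expressed in both tissues and passed the filter on low counts in each. Levels are given in CPM, read counts scaled to the library total with TMM factors, and divided by gene length where genes are set against each other. Averaged over all groups, Dbp stood highest in both tissues, with a mean of 106.9 CPM per kb in outer medulla and 166 CPM per kb in cortex. In outer medulla Nr1d1 (50.6), Tef (34.5), Nr1d2 (29.6), Per1 (19.3), Per2 (8.92), Per3 (7.85), Arntl (6.14), Hlf (5.18) and Cry1 (2.38 CPM per kb) followed. In cortex the order was Nr1d1 (51.2), Tef (49.5), Nr1d2 (33.6), Hlf (20.9), Per1 (16.1), Per2 (14.1), Per3 (7.93), Arntl (5.18) and Cry1 (2.48 CPM per kb). Across 30 libraries of a tissue the ranges of neighbours in these orders overlapped, Dbp and Nr1d1 included (15.1 to 291 against 17.1 to 75.5 CPM per kb in outer medulla). Dbp was the highest of the 10 in 11 of the 12 groups, and in SS outer medulla at LS it had 45 CPM per kb where Nr1d1 had 50.8. The length counted for Hlf, 888 bases, is that of the deposited table and is short beside the 1702 to 5783 bases of the others.

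The clearest feature of these genes was their spread among libraries of 1 group. Arntl, the activator (ENSRNOG00000014448, chromosome 1, 178039063 to 178137465, plus strand; here and below the positions are those of the deposited table, whose genome build is not given in the sources used here), had 2.47, 36.1, 27.4, 17.6 and 11.1 CPM in NOX4 outer medulla at LS (replicates 1 to 5, in this order in every such list). At HS7 NOX4 outer medulla had 5.42, 46, 14.3, 7.23 and 5.85 CPM, and at HS21 6.81, 22, 17.4, 14.7 and 5.43 CPM. Replicate 2 was thus the highest at each diet in NOX4 outer medulla, and at LS it held many times the level of replicate 1. SS outer medulla had 32.1, 30.6, 26.7, 22.8 and 40.7 CPM at LS, 18.9, 11.7, 1.75, 8.21 and 7.42 CPM at HS7 and 30.8, 26, 19.8, 21.5 and 8.85 CPM at HS21. The SS group at LS was the tightest of these, and at HS7 replicate 3 lay far below the rest.

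The cortex libraries repeated this picture. NOX4 cortex had 2.27, 21.4, 19, 9.12 and 8.39 CPM of Arntl at LS, 3.76, 50.4, 15.3, 9.35 and 3.31 CPM at HS7 and 4.26, 15.8, 11.7, 9 and 3.05 CPM at HS21. SS cortex had 25.2, 20.7, 36.1, 8.13 and 44 CPM at LS, 20.1, 12.9, 2.39, 6.81 and 5.92 CPM at HS7 and 29.3, 22.6, 17.3, 17.7 and 6.69 CPM at HS21. The extremes of a group were mostly the same numbers as in outer medulla: replicate 1 low and 2 high in NOX4 at LS, 2 high in NOX4 at HS7, 3 low in SS at HS7 and 5 low in SS at HS21. Over all libraries Arntl spanned 26.3-fold in outer medulla and 22.2-fold in cortex.

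Dbp, the output factor with the highest level (ENSRNOG00000021027, chromosome 1, 101687855 to 101692846, plus strand), tended to be low where Arntl was high. In NOX4 outer medulla it had 496, 76.3, 97.7, 185 and 238 CPM at LS, 346, 36.3, 193, 318 and 320.2 CPM at HS7 and 251, 124, 145, 196 and 341 CPM at HS21. In SS outer medulla it had 70.7, 104, 74.7, 108 and 25.7 CPM at LS, 107, 119.7, 386, 301 and 231 CPM at HS7 and 56.1, 91.9, 111, 88.3 and 221 CPM at HS21. Replicate 2 of NOX4 at HS7, the library with the most Arntl, had the least Dbp of its group, and replicate 3 of SS at HS7, with the least Arntl, had the most Dbp. The ratio of Dbp to Arntl ran from 0.790 to 63.7 inside the NOX4 HS7 outer medulla group and from 5.66 to 220.2 inside the SS HS7 outer medulla group. It was least variable in SS outer medulla at LS, from 0.632 to 4.73.

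NOX4 cortex had 601, 199.5, 197, 339.9 and 354 CPM of Dbp at LS, 545, 50.6, 254, 339 and 492 CPM at HS7 and 457, 228, 273, 403 and 529.9 CPM at HS21. SS cortex had 125, 145, 117, 257 and 53.6 CPM at LS, 222, 144, 496, 461 and 289 CPM at HS7 and 99.8, 122, 164, 168 and 363 CPM at HS21. The groups overlapped at every diet, and the library of 50.6 CPM in NOX4 cortex at HS7 lay below every SS cortex library.

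**Figure D1:**
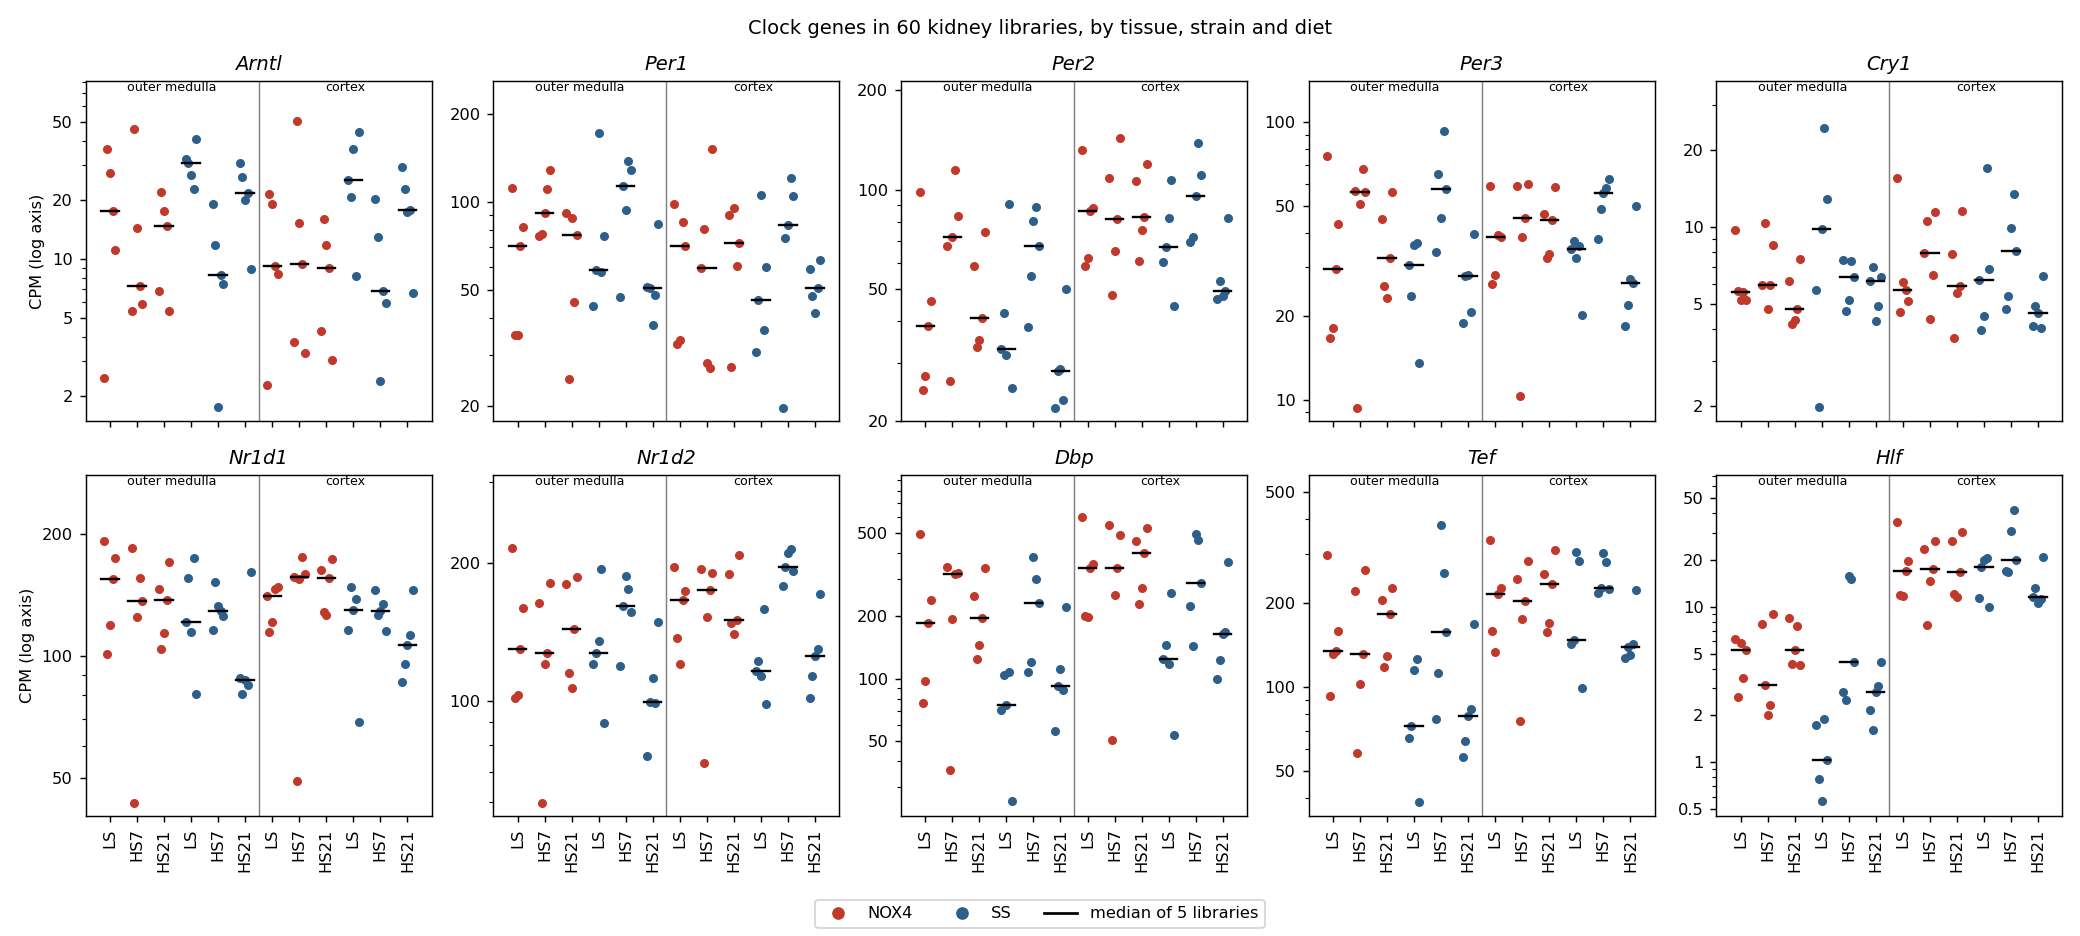
Level of each clock gene in CPM on a log axis, with 1 point per library, the 6 outer medulla groups left of the grey line and the 6 cortex groups right of it, NOX4 in red and SS in blue, and a bar at the median of 5 libraries. Arntl spans 1.75 to 46.004 CPM in outer medulla and 2.27 to 50.4 CPM in cortex, mostly inside groups, and Hlf is lower in outer medulla than in cortex.

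Measured as the SD of log2 CPM around the group means, this spread was 1.07 for Arntl in outer medulla and 1.15 in cortex, against medians of 0.335 and 0.228 over all genes of at least 1 CPM in outer medulla and cortex. For Dbp the SD was 0.931 in outer medulla and 0.852 in cortex, and for the other genes it was 0.424 to 0.790 in outer medulla and 0.328 to 0.798 in cortex. The smallest of these, that of Nr1d2, still exceeded that of 63.5% of genes in outer medulla and 69.1% in cortex. Differences between libraries of 1 group made up 68.8% of the variance of Arntl in outer medulla and 74.3% in cortex, against medians over all genes of 66.8% and 66.9%, and 44% of that of Hlf in outer medulla.

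The genes moved together inside groups, with Arntl opposite to the rest. Pearson correlations were computed over the deviations of 30 libraries from their group means, with a permutation test inside groups and p-values adjusted over the 90 pairs of genes and tissues. Arntl correlated negatively with all 9 other genes in both tissues. The strongest of these was with Dbp, at r = -0.895 in outer medulla (Spearman rho = -0.949) and -0.91 in cortex (rho = -0.917), and the weakest were with Cry1 in outer medulla (-0.123, adjusted permutation p = 0.394) and with Per1 in cortex (-0.386, adjusted permutation p = 0.108). Without the 2 libraries farthest from the median of Arntl, r with Dbp was -0.908 in outer medulla and -0.896 in cortex. The adjusted permutation p for that pair was 2.5e-05 in each tissue, and the raw value of 1e-05 is the smallest that 100000 resamples can give.

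Among the other 9 genes, 34 of 36 pairs correlated positively in each tissue. The tightest were Nr1d2 with Dbp in outer medulla (r = 0.926) and Per3 with Nr1d2 in cortex (0.939). Per2, the repressor with the higher level per length of the pair Per2 and Per3, had 0.898 with Dbp in outer medulla and 0.927 with Hlf in cortex. Leaving out Arntl, Per1 and Cry1, the 21 remaining pairs had r of 0.264 to 0.926 in outer medulla and 0.634 to 0.939 in cortex. Of the repressors, Cry1 followed the others least in outer medulla and Per1 in cortex: in outer medulla Cry1 had -0.04 with Dbp and 0.0711 with Per3, and in cortex Per1 had -0.102 with Nr1d1 and 0.194 with Dbp. Of the 45 pairs of a tissue, 31 in outer medulla and 34 in cortex passed an adjusted permutation p of 0.05. These are correlations across libraries that share their groups, sequencing and scaling, and they give no order in time.

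**Figure D2:**
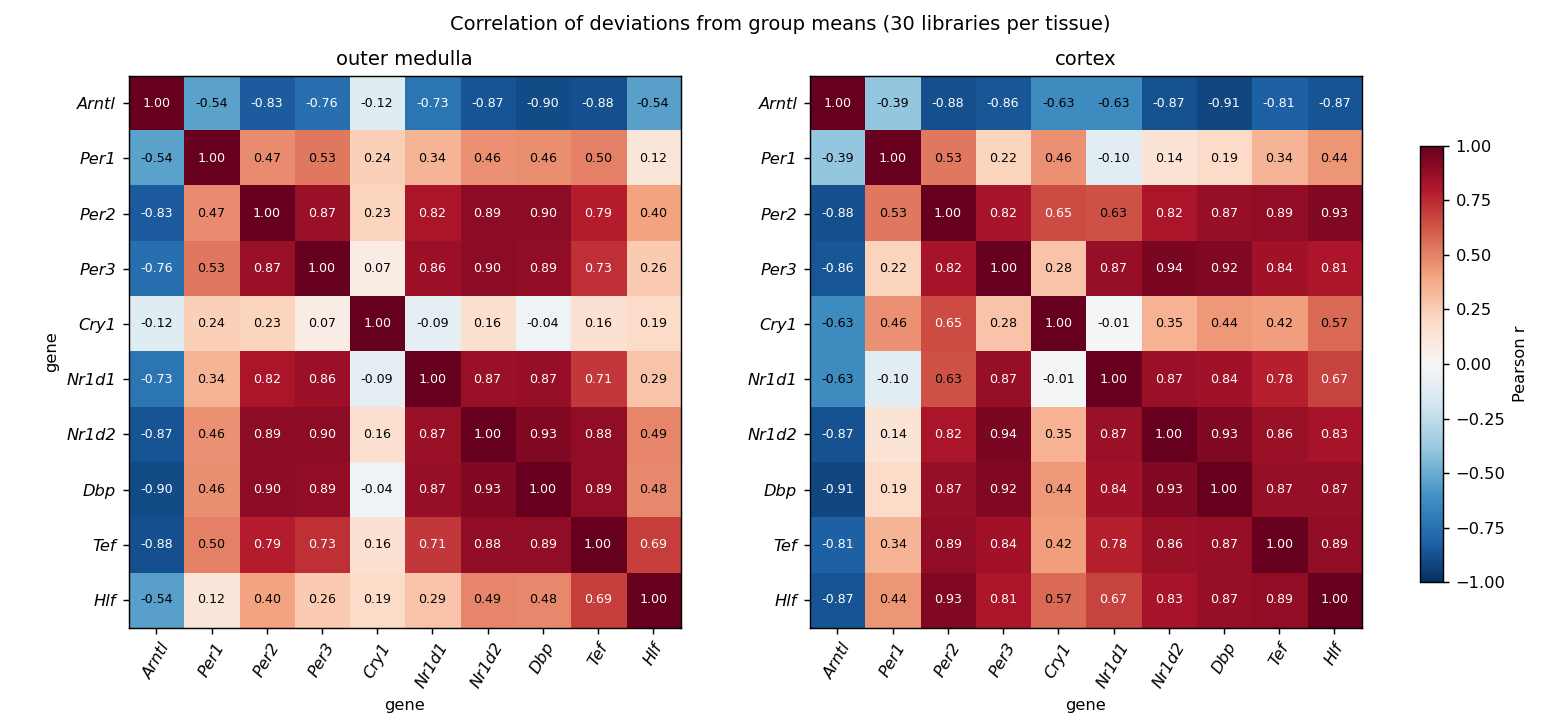
Pearson r between clock genes over deviations of log2 CPM from the group mean, 30 libraries per tissue, outer medulla left and cortex right, with the value printed in each cell and the colour running from blue at -1 to red at 1. The Arntl row is blue in both panels (-0.895 to -0.123 in outer medulla, -0.910 to -0.386 in cortex), and among the rest the palest row is that of Cry1 in outer medulla and that of Per1 in cortex.

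Deviations in outer medulla were mostly repeated in the cortex library of the same group and number. Over 30 such pairs the deviations of Dbp from the group means correlated at r = 0.953 (rho = 0.931), those of Arntl at 0.935 (rho = 0.937) and those of Nr1d2 at 0.935 (rho = 0.903). Nr1d1 followed with 0.895, Per3 with 0.885, Tef with 0.86, Per2 with 0.835 and Per1 with 0.79, while Cry1 (0.691) and Hlf (0.509) were lower. The median over 13403 genes of at least 1 CPM in both tissues was 0.0608, and Dbp, Arntl and Nr1d2 ranked 1, 2 and 3 among them. Nr1d1 ranked 5, Per3 7, Tef 9, Per2 12, Per1 24, Cry1 116 and Hlf 770. The permutation p inside groups was 1e-05, the smallest that 100000 resamples can give, for 6 of the genes, and at most 8.0e-05 for the rest but Hlf (0.0111). With a parametric p adjusted over all 13403 genes, 9 of the 10 genes passed 0.05, with Hlf at 0.118, against 4.04% of all genes.

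The correlation between tissues was positive in both strains, with r between 0.696 and 0.966 in NOX4 and between 0.637 and 0.932 in SS for the 9 genes other than Hlf, and 0.494 and 0.564 for Hlf. Leaving out, for each gene, the 2 pairs farthest from the median in cortex gave 0.552 (Cry1) to 0.922 (Dbp) for those 9. The outer medulla libraries with markers of cortex, NOX4 HS7 replicate 2 and SS HS7 replicate 3, deviated by 2.07 and -2.04 for Arntl. For Dbp they deviated by -2.38 and 0.93. The part of cortex tissue in these correlations was not tested. In Per1, a repressor that is also induced by glucocorticoids and other acute signals, replicates 3 and 4 of NOX4 at HS7 stood apart: they had 91.2 and 111 CPM in outer medulla and 27.99 and 26.99 CPM in cortex. The names of these 2 cortex libraries lie outside the run of the other names. Without both numbers r for Per1 was 0.928 and for Per2 0.922, a comparison chosen after seeing the data. Over the 10 genes the 5 pairs of these numbers in NOX4 at HS7 correlated at 0.871, 0.952, 0.425, 0.214 and 0.788 (replicates 1 to 5). Replicate 4 of SS at HS21 had -0.0432, and the other 29 pairs of the series were above 0.1.

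**Figure D3:**
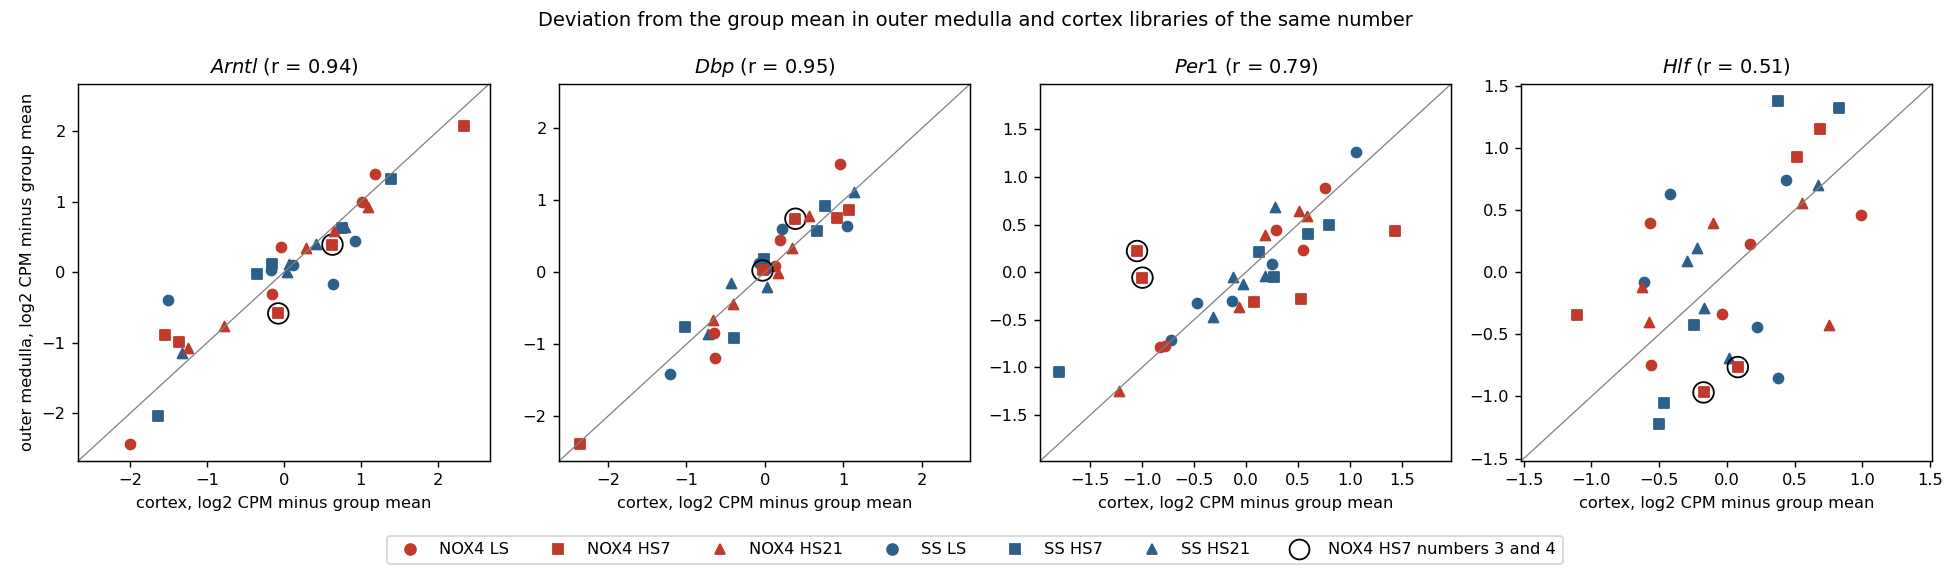
Deviation of log2 CPM from the group mean in outer medulla (vertical) against the cortex library of the same group and number (horizontal), for Arntl, Dbp, Per1 and Hlf, 30 points each, with colour for strain, shape for diet and a grey line of equal deviation. Points lie along the line for Arntl (r = 0.94) and Dbp (0.95), the 2 ringed NOX4 HS7 pairs leave it for Per1 (0.79), and Hlf scatters (0.51).

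The comparison of strains asks how the clock genes stand in rats without NOX4. The labels give no hour of sampling, so differences of strain and of hour between groups could not be told apart. At LS, 1 of the 10 genes was called in each tissue, Hlf in outer medulla and Dbp in cortex, both higher in NOX4. Over all genes tested by edgeR's quasi-likelihood test, 14.8% were called there in outer medulla and 22% in cortex. A count of 1 in 10 genes is too small to tell their share from these. Fold changes are log2 values of NOX4 over SS with their standard errors. Their median over the 10 genes was 0.11 in outer medulla and 0.22 in cortex, against -0.02 and 0.01 over all genes tested.

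Hlf, which encodes the hepatic leukemia factor of the D-box family (ENSRNOG00000002456, chromosome 10, 77840568 to 77918191, minus strand), had 6.16, 2.61, 5.89, 3.50 and 5.24 CPM in NOX4 outer medulla at LS and 1.74, 0.778, 0.561, 1.90 and 1.03 CPM in SS. The groups did not overlap, and the log2 fold change was 1.91 ± 0.51 (adjusted p = 0.0153). The SS values rest on 38, 11, 9, 31 and 17 counts. In bulk tissue a lower share of the cells that express a gene and less RNA in each such cell cannot be told apart. Proximal tubule markers moved the same way: averaged over 8 markers of segment 3, log2 CPM came to 7.14 ± 0.636 (SD, n = 5) in NOX4 libraries, against 5.80 ± 0.804 (SD, n = 5) in SS libraries, and their summed level ran from 4178 to 12828 CPM in NOX4 and from 2263 to 4426 CPM in SS. For 8 markers of segments 1 and 2 the sums were 1262 to 5007 CPM in NOX4 and 206 to 1239 CPM in SS, where Slc5a2, Slc5a12 and Slc6a19 each had a library at 0, as did Slc22a7 of segment 3. The part of these segments in the difference was not tested. The low-complexity libraries of the group, SS replicates 2, 3 and 5, held the 3 lowest values, and without all low-complexity libraries, which left 5 NOX4 and 2 SS libraries, the fold change was 1.34 (adjusted p = 0.120, against 0.00234 to 0.120 over its 16 alternatives).

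Dbp differed in the same direction in both tissues at LS. In cortex NOX4 averaged 338 ± 164 CPM and SS 139.5 ± 74.1 CPM (SD, n = 5 each), a log2 fold change of 1.27 ± 0.46 (adjusted p = 0.0464), with all 5 NOX4 libraries above the SS mean. The call ended when any 1 of SS replicates 1, 2, 3 and 5 or NOX4 replicates 1, 4 and 5 was left out (adjusted p of 0.0698 to 0.155), with DESeq2's size factors (0.0509) and without the low-complexity libraries (5 NOX4 against 2 SS libraries, log2 fold change 1.92, adjusted p = 0.0752). In outer medulla the fold change was 1.47 ± 0.52 (adjusted p = 0.0541), which was not called, with 219 ± 168 CPM in NOX4 and 76.6 ± 33 CPM in SS. It was called there by DESeq2 (adjusted p = 0.0234) and without NOX4 replicate 2 (0.0423).

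The other genes were not called between strains at LS. For Arntl the fold change was -0.72 ± 0.59 (adjusted p = 0.43) in outer medulla and -1.16 ± 0.63 (adjusted p = 0.197) in cortex. Tef, the third D-box factor, had 0.92 ± 0.42 (adjusted p = 0.129) in outer medulla and 0.12 ± 0.29 (adjusted p = 0.81) in cortex. Cry1, whose protein is a repressor of the activator, had -0.84 ± 0.37 (adjusted p = 0.122) in outer medulla, where SS ranged from 1.98 to 24.4 CPM around a NOX4 range of 5.19 to 9.76 CPM. Without the low-complexity libraries (5 NOX4 against 2 SS), or without SS replicate 2 alone, Cry1 was called lower in NOX4 outer medulla (log2 fold change -1.28, adjusted p = 0.0332; -1.11, 0.0192). In both fits SS replicate 4, with the highest Cry1 of its group (24.4 CPM), was kept and replicate 2, with the lowest (1.98 CPM), was left out. The other SS library kept without the low-complexity libraries, replicate 1, lay below the group mean of log2 CPM (deviation -0.51, against 1.57 for replicate 4). The standard errors of Arntl (0.59 and 0.63) were the largest of the 10 genes in both tissues.

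At HS7 and HS21 none of the 10 genes was called between strains in either tissue by edgeR, against 9.61% and 1.63% of all genes in outer medulla and 17.4% and 1% in cortex at those diets. DESeq2 called none either. At an unadjusted p under 0.05 edgeR gave 0 of the 10 genes in both tissues at HS7, against 25.6% of all genes in outer medulla and 32% in cortex, and 2 in outer medulla and 3 in cortex at HS21, against 17.7% and 11.4%. At HS7 the fold changes of Arntl were positive, 0.66 ± 0.60 (adjusted p = 0.53) in outer medulla and 0.78 ± 0.64 (adjusted p = 0.427) in cortex, where replicate 2 of NOX4 held the highest level. At HS21 Arntl had -0.71 ± 0.59 (adjusted p = 0.579) in outer medulla and -1.09 ± 0.63 (adjusted p = 0.572) in cortex. Positive values were found for 8 of the 10 genes in outer medulla and 9 in cortex, Dbp among them with 0.88 ± 0.51 (adjusted p = 0.377) and 1.04 ± 0.46 (adjusted p = 0.359). The median over the 10 genes was 0.43 in outer medulla and 0.51 in cortex, against -0.02 and 3.3e-06 over all genes tested. These signs are not independent, since the genes vary together inside groups and the tissues may share animals. Hlf at HS21 in outer medulla had 8.44, 4.30, 5.26, 7.54 and 4.24 CPM in NOX4 and 2.17, 1.62, 2.85, 3.07 and 4.41 CPM in SS, a fold change of 1.07 ± 0.49 (adjusted p = 0.251). A fit of these groups alone called Hlf (adjusted p = 0.0256) and Tef (0.0435) higher there, among 3703 called of all 15288 genes tested.

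**Figure D4:**
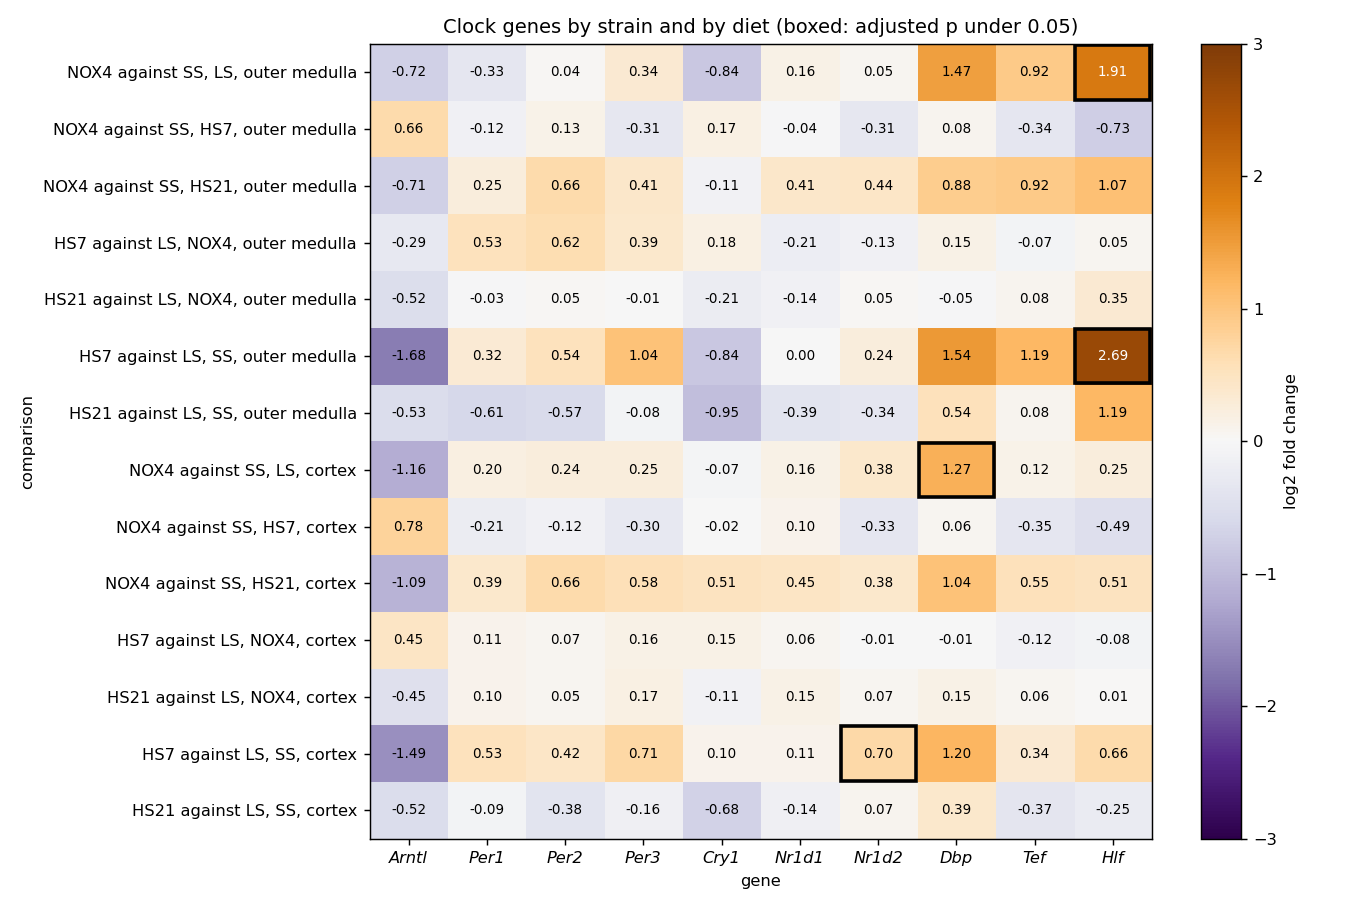
Log2 fold change of each clock gene (columns) in 14 comparisons of strain or diet (rows), NOX4 over SS or high salt over LS, outer medulla in the upper rows and cortex in the lower, coloured from purple (lower) to orange (higher), with the value in each cell and a box where the adjusted p was under 0.05. Boxes mark Hlf at LS between strains (1.91) and at HS7 in SS (2.69) in outer medulla, and Dbp between strains at LS (1.27) and Nr1d2 at HS7 in SS (0.70) in cortex.

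The comparison of diets asks how the clock genes stood after high salt within a strain. Without the hour of sampling, differences of diet and of hour between groups could not be told apart here either. In SS at HS7, 1 of the 10 genes was called in each tissue against LS, with 2.37% of all genes called in outer medulla and 2.25% in cortex. In outer medulla this was Hlf, which had 2.83, 2.50, 15.7, 15.1 and 4.41 CPM at HS7 and 1.74, 0.778, 0.561, 1.90 and 1.03 CPM at LS, without overlap, a log2 fold change of 2.69 ± 0.52 (adjusted p = 0.0161). Replicates 3 and 4 at HS7, both low-complexity, held the highest values, and without the low-complexity libraries, which left 2 libraries at HS7 and 2 at LS, the fold change was 0.92 (adjusted p = 0.782), while a fit of these groups alone gave 2.73 (0.486). The adjusted p ran from 4.37e-05 to 0.782 over its 16 alternatives. Without replicate 3, the library with markers of cortex, the fold change was 2.32 ± 0.52 (adjusted p = 0.0425). Replicates 3 and 4 also had the highest scores of proximal markers: 8.79 and 6.26 for segments 1 and 2 and 8.22 and 7.47 for segment 3 (mean log2 CPM), where the other 3 libraries at HS7 had 3.44 to 5.26 and 5.27 to 6.59. Summed, the markers of segments 1 and 2 reached 428 to 10979.7 CPM at HS7 and 206 to 1239 CPM at LS, and those of segment 3 reached 2276 to 13192 CPM at HS7 and 2263 to 4426 CPM at LS. No marker of either list was at 0 at HS7. Markers of the distal convoluted tubule scored 5.04 in replicate 3 and 2.37 to 2.83 in the other libraries at HS7, against 2.15 to 2.61 at LS, and podocyte markers 4.71 in replicate 3 and 1.41 to 2.66 in the others, against 1.44 to 2.77 at LS. Over 30 outer medulla libraries the deviations of Hlf correlated with those of the segment 3 score at r = 0.651 (rho = 0.632) and of the segments 1 and 2 score at 0.645 (rho = 0.624), with permutation p of 0.00204 and 0.00261, adjusted p of 0.145 each over 220 relations, and at 0.562 (rho = 0.587) with those of the podocyte score (permutation p = 0.0205, adjusted 0.594). Hlf itself was higher in cortex than in outer medulla, as given below. The part of these cells in the change was not tested.

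In SS cortex the called gene was Nr1d2, the gene of the repressor REV-ERB beta (ENSRNOG00000046912, chromosome 15, 8730871 to 8757165, plus strand). It had 178, 196, 209.8, 215 and 192 CPM at HS7 and 116, 122, 113, 158 and 98.5 CPM at LS, without overlap, a log2 fold change of 0.70 ± 0.19 (adjusted p = 0.0429). Leaving out any 1 of LS replicates 1, 2, 3 and 5 or HS7 replicates 3, 4 and 5 took the adjusted p to between 0.0572 and 0.0841, and it was 0.103 in a fit of these groups alone and 0.238 without the low-complexity libraries, which left 3 at HS7 and 2 at LS (0.00934 to 0.238 over its 16 alternatives). The partner repressor gene Nr1d1 had 146, 126, 129, 135 and 115 CPM at HS7 and 116, 148, 130.1, 139 and 68.7 CPM at LS, and its fold change was 0.11 ± 0.22 (adjusted p = 0.829).

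The other genes at HS7 in SS were not called, though their values were far from 0 in several cases. Arntl had -1.68 ± 0.61 (adjusted p = 0.104) in outer medulla and -1.49 ± 0.65 (adjusted p = 0.195) in cortex. Dbp had 1.54 ± 0.52 (adjusted p = 0.0853) and 1.20 ± 0.46 (adjusted p = 0.14), Per3 1.04 ± 0.41 (adjusted p = 0.137) and 0.71 ± 0.31 (adjusted p = 0.2), and Tef 1.19 ± 0.42 (adjusted p = 0.0939) and 0.34 ± 0.29 (adjusted p = 0.554), outer medulla before cortex in each case. DESeq2 called Dbp (adjusted p = 0.0286) and Tef (0.0365) as well as Hlf in outer medulla, among 1434 called of all 15780 genes. Without SS HS7 replicate 1 edgeR called 4 genes there, Arntl lower (-2.08, adjusted p = 0.0487) and Dbp (0.0453), Tef (0.0369) and Hlf higher, and without replicate 2 it called Dbp (0.0472) and Hlf. At an unadjusted p under 0.05 there were 6 of the 10 genes in outer medulla and 4 in cortex, against 21.8% and 19.6% of all genes.

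At HS21 in SS edgeR called none of the 10 genes in either tissue, while 9.86% of all genes were called in outer medulla and 16.5% in cortex. DESeq2 called none, and 2 of the 10 genes in outer medulla and 0 in cortex had an unadjusted p under 0.05, against 24.9% and 31.7% of all genes. Cry1 in outer medulla had -0.95 ± 0.37 (adjusted p = 0.105) and was called lower without the low-complexity libraries (5 at HS21 against 2 at LS, -1.39, adjusted p = 0.0258) or without LS replicate 2 (-1.21, 0.0145). Both fits kept LS replicate 4, with the highest Cry1 of that group, and left out LS replicate 2, with the lowest. Hlf in outer medulla had 1.19 ± 0.51 (adjusted p = 0.135). Replicate 5 at HS21 stood apart from its group in both tissues: for Nr1d1 it had 161 CPM in outer medulla where the others had 80.5 to 88.3, and for Tef 223 CPM in cortex where the others had 128 to 143.

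In NOX4 no clock gene was called at HS7 or HS21 in either tissue, and edgeR called 0% of all genes in these 4 comparisons. None of the 10 genes had an unadjusted p under 0.05 in any of them, against 13.7% (HS7) and 1.58% (HS21) of all genes in outer medulla and 5.15% and 1.55% in cortex, and DESeq2, which called 124 and 5 genes of the table at HS7 and HS21 in outer medulla and 18 and 7 in cortex, called none of the 10. In outer medulla the fold changes ran from -0.29 (Arntl) to 0.62 (Per2) at HS7 and from -0.52 (Arntl) to 0.35 (Hlf) at HS21. In cortex they ran from -0.12 (Tef) to 0.45 (Arntl) at HS7 and from -0.45 (Arntl) to 0.17 (Per3) at HS21. Their standard errors were 0.25 to 0.59 in outer medulla and 0.18 to 0.64 in cortex.

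The change with salt in NOX4 minus that in SS was tested directly, since a call in SS and none in NOX4 does not show a difference. No clock gene was called in the 4 tests of this kind, by edgeR or DESeq2, against 0% (HS7) and 0.0253% (HS21) of all genes in outer medulla and 0.0132% and 1.08% in cortex. At an unadjusted p under 0.05 there were 2 of the 10 genes at HS7 in each tissue, against 10.6% of all genes in outer medulla and 13% in cortex, and 0 at HS21, against 9.28% and 16.1%. The lowest adjusted p in outer medulla was that of Hlf at HS7, at -2.64 ± 0.70 (adjusted p = 0.302), and in cortex that of Nr1d2 at HS7, at -0.71 ± 0.26 (adjusted p = 0.251). Arntl at HS7 had 1.39 ± 0.84 (adjusted p = 0.534) in outer medulla and 1.94 ± 0.90 (adjusted p = 0.349) in cortex.

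In the authors' deposited table of their own tests, 3 of the 10 genes are called between strains at LS in outer medulla (Dbp, Tef and Hlf) and 1 in cortex (Dbp), where that table calls 17.1% and 16.6% of the genes it gives an adjusted p. At HS21 the authors' deposited table calls 2 in outer medulla (Tef and Hlf) and 1 in cortex (Nr1d1), against 25.6% and 9.38% of all its genes, and at HS7 it calls none, against 1.1% and 7.1%. For SS at HS7 the authors' deposited table calls Dbp and Hlf in outer medulla and Per3 and Nr1d2 in cortex, against 0.304% and 0.542% of all its genes, and at HS21 Hlf in outer medulla and none in cortex, against 13% and 15.1%. For NOX4 the authors' deposited table calls none of the 10 genes, against 0.265% (HS7) and 0.205% (HS21) of all its genes in outer medulla and 0.0589% and 0.177% in cortex. All of its calls among the 10 genes have positive fold changes, from 0.45 (Nr1d1) to 2.75 (Hlf).

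Between tissues the D-box factors and Per2 stood lower in outer medulla. Averaged over the 6 groups of strain and diet, 4 of the 10 genes were called lower in outer medulla and none higher, against 34% lower and 37.6% higher of all genes tested (71.6% in either direction). Hlf had a log2 fold change of -2.21 ± 0.18 (outer medulla over cortex, adjusted p = 4.38e-16), Per2 -0.69 ± 0.14 (adjusted p = 1.75e-05), Dbp -0.66 ± 0.21 (adjusted p = 0.00366) and Tef -0.58 ± 0.15 (adjusted p = 0.00073). Each of these 4 calls held in all 10 alternatives run for this comparison. The alternative with a block for libraries of the same strain, diet and number called 7 of the 10 genes, among 11577 of all 16326. It added Arntl and Per1 as higher and Nr1d2 as lower in outer medulla. The level of Hlf averaged 4.60 CPM in outer medulla and 18.6 CPM in cortex, and that of Per2 51.6 CPM in outer medulla and 81.6 CPM in cortex.

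In libraries of the same group and number, Dbp and Hlf were higher in outer medulla in 0 of 30 pairs, Tef in 1 and Per2 in 2. The 2 pairs in which Per2 was higher in outer medulla were again replicates 3 and 4 of NOX4 at HS7, with 72.2 and 115 CPM in outer medulla and 65.2 and 81.8 CPM in cortex. The median log2 ratio was -2.22 for Hlf, -0.84 for Per2, -0.65 for Dbp and -0.57 for Tef. Nr1d2 was higher in outer medulla in 5 pairs, Nr1d1 in 13, Per3 and Cry1 in 11 each, Per1 in 21 and Arntl in 22. Per3, whose levels followed those of Per2 inside groups, had a fold change of -0.04 ± 0.15 (adjusted p = 0.826) between tissues.

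**Figure D5:**
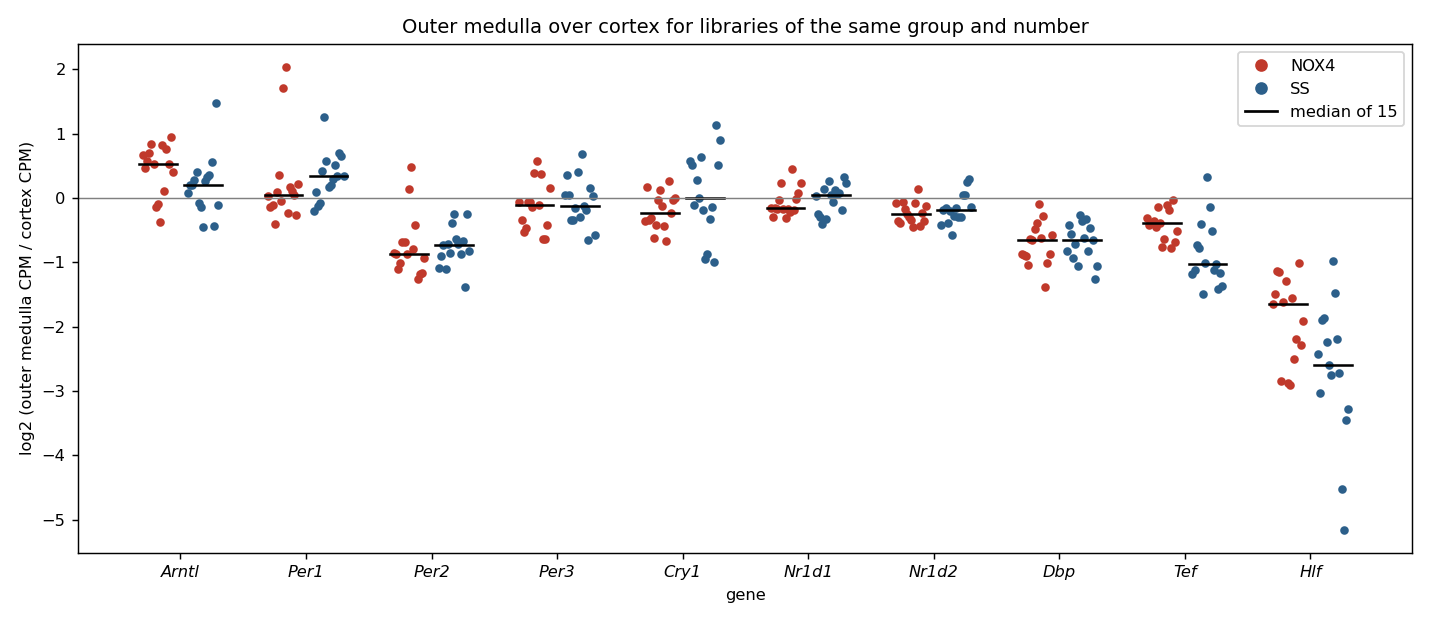
Log2 ratio of outer medulla over cortex CPM for each clock gene in 30 pairs of libraries of the same group and number, NOX4 in red and SS in blue, with a bar at the median of 15 pairs and a grey line at 0. All points of Dbp and Hlf lie below 0, Hlf from -5.15 to -0.98, and the 2 highest points of Per1 are replicates 3 and 4 of NOX4 at HS7.

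Of a list of 18 other clock genes, 15 passed the filter. The share of them called was 13.3% in outer medulla and 6.67% in cortex between strains at LS, where 14.8% and 22% of all genes were called, and at most 1 of the 15 was called in any other comparison of strains or diets. In outer medulla, Clock, the partner of the activator (-0.49 ± 0.14, adjusted p = 0.0179), and Tipin, whose protein binds TIMELESS (-0.73 ± 0.23, 0.0313), were lower in NOX4 at LS. In cortex Csnk1d, the gene of a casein kinase that phosphorylates PER proteins, was higher in NOX4 at LS (0.27 ± 0.06, adjusted p = 0.00128), and Rora, whose protein activates Arntl through RORE elements, was lower in NOX4 at HS7 (-0.53 ± 0.19, 0.0480). With salt in SS, Clock was lower at HS21 in outer medulla (-0.46 ± 0.14, adjusted p = 0.0316) and Csnk1d higher at HS21 in cortex (0.24 ± 0.06, 0.00427). No other gene of this list was called between strains, between diets or for the difference in the effect of salt. Between tissues 4 of the 15 were higher and 7 lower in outer medulla (26.7% and 46.7%, against 37.6% and 34% of all genes), with Csnk1e at 0.79 ± 0.05 (adjusted p = 3.11e-19), Timeless at 0.86 ± 0.09 (4.32e-13) and Clock at -0.79 ± 0.06 (9.28e-19).

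By the pattern of deviations over all 60 libraries, the genes most like Dbp among 13402 were 5 of the 10 clock genes, Nr1d2 (r = 0.923), Per3 (0.899), Per2 (0.883), Tef (0.876) and Nr1d1 (0.857), and Arntl was last (-0.899). The 5 most similar genes outside the 10 were Ciart (0.826), which encodes a repressor of the activator complex, Cry2 (0.820), the paralog of Cry1, Usp2 (0.712), a deubiquitinase gene, and Agpat1 (0.652) and Epm2a (0.651). Those most like Arntl were Npas2 (0.769), whose protein can replace CLOCK beside ARNTL, Nfil3 (0.742), the gene of the repressor that competes with DBP at D-boxes, Ppard (0.688), Adamts4 (0.679) and Tsc22d1 (0.666). These values describe likeness across libraries within groups. Cry1 (rank 2297) and Per1 (619) were far less like Dbp than Hlf (12).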

How the data were processed

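Poly(A) RNA was sequenced from 60 kidney libraries in 12 groups of 5. The authors' deposited table gives raw read counts per gene. HISAT2 2.0.5, StringTie 1.3.3b and featureCounts 1.5.0-p3 are named in the submitters' processing notes, without their roles; genome build and strand setting are not given in the sources used here. The deposited table also holds the authors' log2 fold changes and adjusted p-values, used only where named. Gene positions and lengths are those of the deposited table. All 60 count columns were matched to samples by name, and 0 were left unmatched.

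Counts were tested with edgeR 4.0.16 in R 4.3.3 (TMM scaling, filterByExpr by group, quasi-likelihood F test with 1 coefficient per group), on the 30 libraries of a tissue, or on all 60 for the comparison of tissues. Benjamini-Hochberg adjustment ran over all genes tested in a comparison; adjusted values under 0.05 are termed calls. Standard errors are the log2 fold change divided by the root of F. In all, 19 comparisons were made. Fitting was tested on simulated counts for the comparison of strains at LS, with genes picked at random and changed by known folds. Of 1.5-fold changes, 20.9% were called in outer medulla and 46.3% in cortex. Of 2-fold changes 42.4% and 61.2% were called, and of 4-fold changes 84.8% and 87.9%. Correlations used log2 CPM (prior count 2) minus the group mean and 100000 permutations within groups (Python 3.11.15, NumPy 2.4.6, SciPy 1.17.1); the p adjusted over all genes is parametric, with 23 degrees of freedom.

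Alternatives were no filter on low counts, DESeq2's size factors, DESeq2 1.42.0, the compared groups alone, a replicate block, each replicate left out, and the low-complexity libraries left out. Within a tissue the replicate block was the library number alone, shared by all groups. In the comparison of tissues it was strain, diet and number. The genes and lists were chosen with earlier results of these data known. All 10 genes are named, with up to 4 called genes of each other list per comparison and the 5 genes most like Dbp and Arntl; Per1 and Fkbp5 details outside this rule were chosen after their values were seen.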

Additional observations from a re-analysis of the deposited data

Results flagged for a closer look

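Gaps between libraries were taken in log2 CPM for 120 groups of 5 libraries (10 genes in 12 groups). In 13 of them a library had a gap to its nearest neighbour of more than 0.71 of the range of the group. This is the critical value of Dixon's test, and chance flags about 1 in 20 groups. The levels below are given in CPM. Replicate 2 of NOX4 at HS7 was low in 6 of the 13 flagged groups. In outer medulla it had 9.36 CPM of Per3 (others 50.7 to 67.8), 43.5 CPM of Nr1d1 (others 125 to 185) and 36.3 CPM of Dbp (others 193 to 346). In cortex it had 10.3 CPM of Per3 (others 38.5 to 60.2), 49.2 CPM of Nr1d1 (others 155 to 176) and 73.1 CPM of Nr1d2 (others 152 to 194). Replicate 5 of SS at HS21 was high for Nr1d1 in outer medulla (161 CPM, others 80.5 to 88.3), and for Per2 (82.3 CPM, others 46.6 to 53.1) and Tef (223 CPM, others 128 to 143) in cortex. Replicate 1 of NOX4 at LS was high for Cry1 in outer medulla (9.76 CPM, others 5.19 to 5.63) and in cortex (15.6 CPM, others 4.66 to 6.14). In cortex, replicate 1 of SS at HS7 was low for Per1 (19.7 CPM, others 75.4 to 120.3), and replicate 5 of SS at LS was low for Per3 (20.1 CPM, others 32.5 to 37.3). The flags are not independent, since these genes vary together and the tissues may share animals.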

How the results depend on the processing

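No fold change of a called gene reversed in any alternative run. The number of the 10 genes called between strains at LS in cortex, 1 by edgeR, was 0 with DESeq2's size factors, with the replicate block (Dbp 1.15, adjusted p = 0.0515) and without the low-complexity libraries. For SS at HS7 it was 0 in cortex and 0 in outer medulla, against 1 each, both without the low-complexity libraries and in fits of the compared groups alone. These settings called few genes at all there: without the low-complexity libraries 13 of 15618 in cortex and 0 of 16417 in outer medulla. Fits of the compared groups alone called 1 of 13940 in cortex and 1 of 14517 in outer medulla. Without the low-complexity libraries 1 of the 10 genes (Cry1) was called for SS at HS21 in outer medulla, against 0. That fit called 1421 of 16417 genes in all. DESeq2 called 2 of the 10 between strains at LS and 3 for SS at HS7 in outer medulla, against 1 each. Of all 15780 genes it called 3098 and 1434. The compared groups alone gave 2 of the 10 between strains at HS21 in outer medulla, against 0, with 3703 of 15288 genes called in all. Leaving out 1 replicate gave 0 to 1 between strains at LS in cortex and for SS at HS7 in cortex, 1 to 2 between strains at LS and 1 to 4 for SS at HS7 in outer medulla, and 0 to 1 for SS at HS21 in outer medulla (Cry1, without LS replicate 2); it moved no other count. The causes were not tested.

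Of all 16326 genes, 11577 differed between tissues with the replicate block, against 11694 in the main fit. Of the 10 genes, 7 differed with the block, against 4, with Arntl (0.32, adjusted p = 0.000319), Per1 (0.29, 0.00360) and Nr1d2 (-0.20, 6.37e-06) added. The numbers are not known to pair samples: over all genes but these 10, the deviations of same-numbered libraries of the tissues correlated at a median of 0.0281, over 0.1 in 4 of 30 pairs, and 6 of 30 libraries correlated best with their own number. Over the 10 genes the median was 0.782 and 21 of 30 did. Between groups within a tissue, 22 of 75 same-numbered pairs in outer medulla and 12 of 75 in cortex were over 0.1. Without the low-complexity libraries all 10 correlations between tissues kept their side of the threshold, as did 42 of 45 pairs in outer medulla and 43 of 45 in cortex. Hlf in SS outer medulla at LS rests on 9 to 38 counts a library, which limits its precision.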

Other observations

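Genes outside the 10 lay among them in the order of correlation between tissues, and these were chosen after their values were seen. Fkbp5, a gene induced by glucocorticoids, ranked 4 of 13403 (r = 0.900), followed among others by Npepl1 (0.894), Usp2 (0.876), Cxcr5 (0.851) and Glipr2 (0.850). Fkbp5 deviated together with Per1 within groups in outer medulla (r = 0.571, rho = 0.554, adjusted permutation p = 0.0253 over 60 relations) and in cortex (0.546, rho = 0.616, 0.0253), and with Per2 in cortex (0.675, rho = 0.715, 0.00480). With Arntl in outer medulla it had -0.450 (rho = -0.545, adjusted permutation p = 0.0257). The relation was not particular to Per1. With Tef, Fkbp5 had r = 0.558 in outer medulla and 0.674 in cortex (adjusted permutation p = 0.0253 each). It had 0.553 with Per3 in outer medulla (0.0391), and 0.570 with Hlf (0.0253) and 0.568 with Cry1 (0.0399) in cortex. Its other relations with the 10 genes had adjusted permutation p from 0.0529 (Nr1d2 in outer medulla) to 0.725 (Nr1d1 in cortex).

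The median correlation between tissues was 0.415 for 15 other clock genes, 0.145 for 22 genes of clock output, 0.431 for 12 glucocorticoid-responsive genes (Per1, which the list also holds, left out; Sgk1 is in this list and that of clock output) and 0.540 for 11 immediate early genes, against 0.0608 over all genes. Between strains at LS in outer medulla, 6 of 11 immediate early genes were lower in NOX4 (54.5%, against 14.8% of all genes called in either direction; median log2 fold change -1.84), among them Atf3 (-1.59 ± 0.45, adjusted p = 0.0203) and Egr2 (-2.21 ± 0.70, 0.0331). In cortex at LS 1 was higher, Jun (0.55 ± 0.20, adjusted p = 0.0480), and 2 were lower, Egr1 (-1.96 ± 0.52, 0.00711) and Btg2 (-0.62 ± 0.22, 0.0452), which is 27.3% against 22% of all genes. Of 14 glucocorticoid-responsive genes, 2 were lower in outer medulla (14.3%, at the share of all genes), Mt2A (-0.59 ± 0.18, adjusted p = 0.0288) and Zbtb16 (-2.43 ± 0.84, 0.0495), and in cortex 1 was higher and 3 lower (28.6%). Of 22 clock output genes, 2 were called in outer medulla (9.09%, against 14.8% of all genes). Gramd4 (0.56 ± 0.13, adjusted p = 0.00707) and Cirbp (0.69 ± 0.16, 0.00738), the gene of a cold-inducible RNA-binding protein, were higher in NOX4. In cortex 2 of the 22 were higher and 1 lower (13.6%). Over all 11 marker lists, none of 220 correlations with the 10 genes passed the threshold, the lowest adjusted permutation p being 0.145.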
